A study of Rattus norvegicus with 10 samples.

Results

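The ATP-binding cassette (ABC) transporter family was read from the cerebral cortex of adult male Sprague-Dawley rats, 5 given electroacupuncture (EA) and 5 controls. Its members were the rows of the deposited gene table whose symbol is Abc followed by a subfamily letter from a to g and a number, and whose level reached 0.5 FPKM (fragments mapped to a gene, scaled to its transcript length and to the depth of the library) in at least 5 of the 10 libraries. Of the 32623 rows, 49 carried such a symbol, each symbol in 1 row, and 36 of these passed the filter. Rats of the EA group received electrical stimulation through needles at the Baihui and Shuigou acupoints. Control rats were bound for the same time with no stimulation, and the blood vessels of both groups were flushed with saline before the cortex was taken. The study asked which genes accompany the opening of the blood-brain barrier by EA. Both groups were thus restrained, and the comparison is of stimulation added to restraint. The tissue was whole cortex, with neurons, glia and blood vessels together.

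ABC transporters are membrane proteins that spend ATP to move a substrate across a membrane, and most carry a pair of membrane domains and a pair of ATP-binding cassettes, either in 1 chain or shared between 2 smaller chains. Subfamily a moves lipids, b holds the P-glycoprotein drug pumps and transporters of mitochondria and lysosomes, c holds the multidrug resistance-associated proteins (MRPs) and the sulfonylurea receptors of potassium channels, d works in peroxisomes and lysosomes, and g moves sterols and drugs. Subfamilies e and f kept only the ATP-binding cassettes and act on ribosomes. At the blood-brain barrier, P-glycoprotein, the breast cancer resistance protein Abcg2 and several MRPs sit in the endothelial membrane and return drugs to the blood, while glia and neurons use subfamilies a and g to hand on cholesterol.

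Libraries held between 47843590 and 61707722 counts. Marker levels were those of cortex, with the glutamatergic marker Slc17a7 at a mean of 323 FPKM and Snap25 at 908 FPKM in control, whereas the choroid plexus marker Ttr averaged 0.248 FPKM over all libraries and Otx2 was listed at 0 in each. EA 2 and EA 5 stood apart in structural RNA, whose summed level was 1986 and 2440 FPKM there and 1074 to 1341 FPKM in the other 8 libraries, so the counts of members are also given without that pair. No row was named for the P-glycoprotein genes Abcb1a and Abcb1b in the table used here. Replicates are separate libraries, and the p-values weigh the difference between the groups against the spread between these libraries.

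In EA cortex the family was slightly lower. The summed level of the 36 members was 366, 392, 377, 378 and 378 FPKM in control 1 to 5 and 359, 358, 341, 361 and 350.2 FPKM in EA 1 to 5. Every EA sum lay below every control sum, and the means were 378.3 ± 9.21 and 353.9 ± 8.20 FPKM (SD, n = 5 each), a change of -6.44%. With EA 2 and EA 5 set aside, the other 3 EA sums lay below every control, which follows from the full set. Counts scaled by TMM, which corrects each library for its overall composition, gave 1805 to 1868 CPM (counts scaled to library size) in control and 1680 to 1753 CPM in EA, a change of -6.13%. In bulk tissue, fewer cells of a type and less RNA per cell cannot be told apart.

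By gene, 28 of the 36 members (77.8%) had a log2 fold change of EA against control below 0, beside 50.5% of all 15169 genes tested. Their median log2 fold change was -0.08, beside -0.002 over all genes. No member was called by edgeR's quasi-likelihood test at a Benjamini-Hochberg adjusted p under 0.05 and a fold above 1.2, a rule that called 0.0198% of all genes, 3 in number. At an unadjusted p under 0.05, 9 members were lower (25.0%, background 7.15%) and 0 were higher (background 6.59%). Without EA 2 and EA 5 together, 24 members lay below 0 at a median of -0.07, and 3 were lower at that p, namely Abca2, Abcb4 and Abcc6, against 4.32% of all genes. Without control 1, 3 members were higher, Abca1, Abca5 and Abca8, against 8.63% of all genes. Without control 3, EA 3 or EA 5 in turn 1 was higher, against 5.58%, 7.6% and 5.16% of all genes. DESeq2 called 1 member, Abcc6, and 1.09% of all genes. Because nothing passed the edgeR threshold, the differences described for single genes are values and not calls. Log2 fold changes are given ± their standard error, and a signed value given for a gene without a unit is its log2 fold change of EA against control. For the subfamilies, roles and gene lists described below, the shares of all genes are those of the main fit. These are 50.5% below 0, and 7.15% lower and 6.59% higher at an unadjusted p under 0.05.

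**Figure D1:**
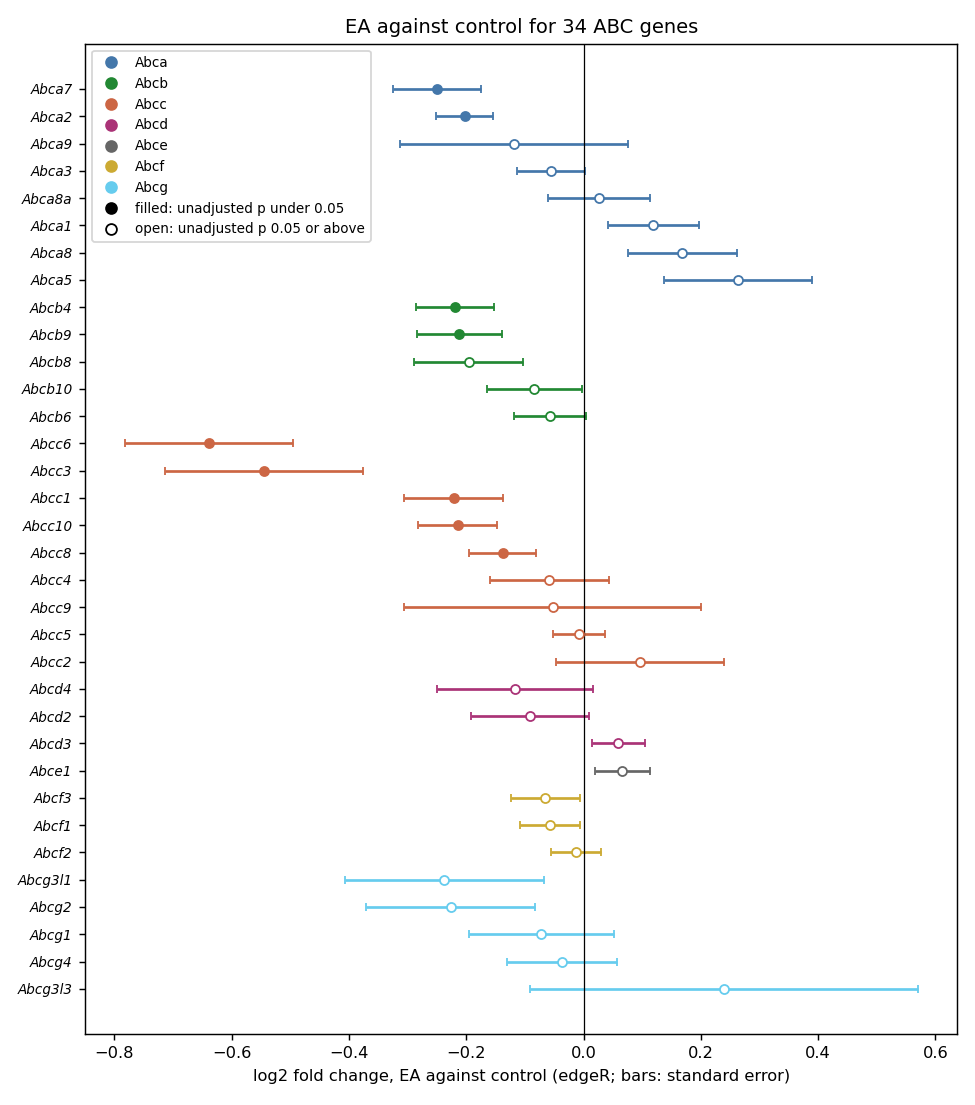
The plot gives the edgeR log2 fold change of EA against control on the x axis for 34 of the 36 ABC genes, coloured by subfamily, with the standard error as bars and filled points for an unadjusted p under 0.05. All 9 filled points lie below 0, Abcc6 lowest at -0.64, and 8 open points lie above 0.

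Abcc3 passed the filter only through the control libraries, in which it reached 0.5 FPKM in 5 of 5 against 0 of 5 in EA, so it had to be lower to be a member in this way. Leaving it out, 27 of 35 members lay below 0, and 8 of 35 were lower at an unadjusted p under 0.05. Abcc2 reached the minimum in 7 libraries, and Abca9 and Abcg3l3 in 9. Outside the rule were 13 symbols, of which Abca4, the retinal flippase of photoreceptors, had the highest mean at 0.222 FPKM. Abca17 averaged 0.161 FPKM and Abcc12 0.105 FPKM. Each of the other 10 (Abca6, Abca12, Abca13, Abca14, Abca15, Abca16, Abcb5, Abcb11, Abcg5 and Abcg8) averaged 0.0233 FPKM or less, and Abca15 had 0 counts in every library. The bile salt pump Abcb11 and the intestinal sterol pair Abcg5 and Abcg8 were thus near 0 in cortex.

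**Figure D2:**
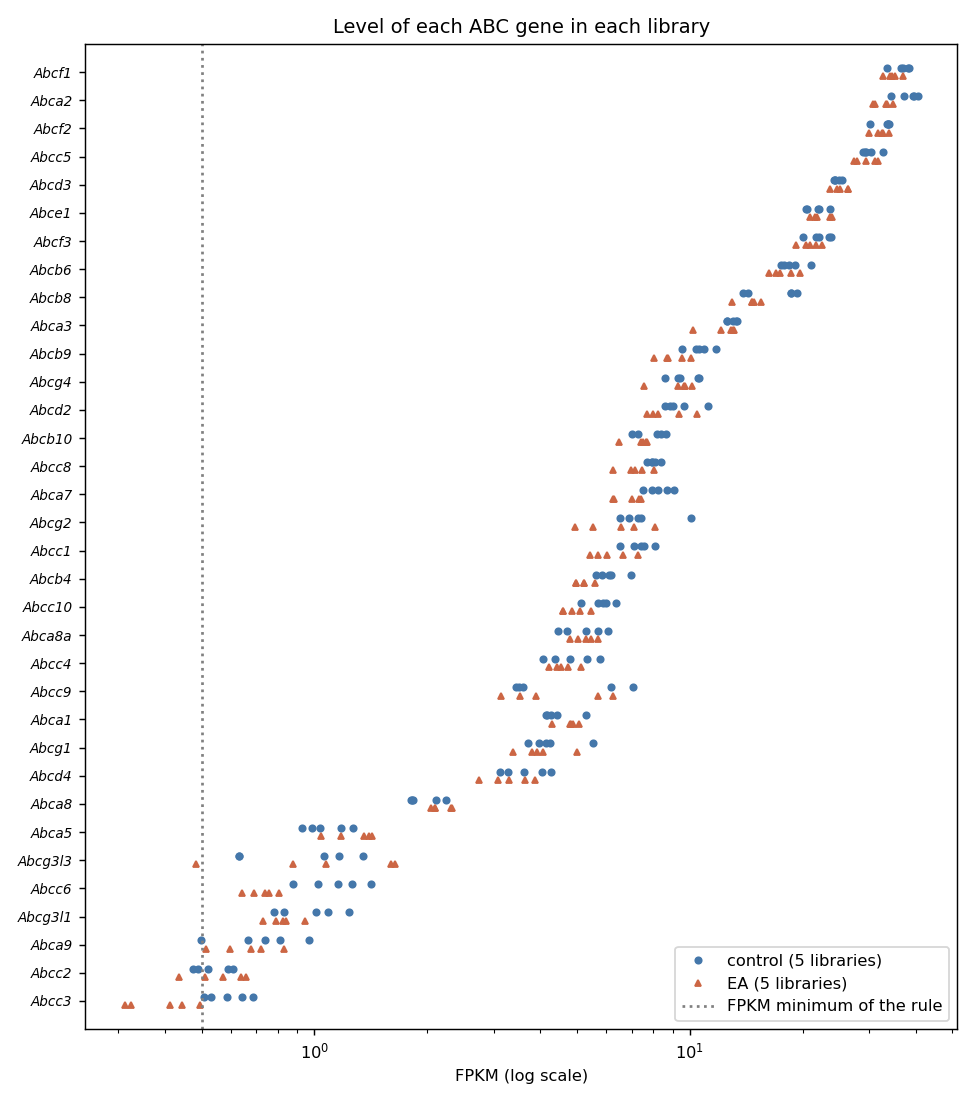
Each row is 1 of 34 of the 36 ABC genes and each symbol is 1 library, control as circles and EA as triangles, with FPKM on a log x axis and a dotted line at the 0.5 FPKM minimum. Levels span from 0.312 FPKM for Abcc3 to 40.5 FPKM for Abca2, and for Abcc3, Abcc6, Abca7 and Abcb4 all triangles lie left of all circles.

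Groups did not overlap for 4 of the 36 members (11.1%), all lower in EA, beside 2.25% of all genes, and for 0 members higher in EA, beside 0.85%. These were Abcc6, Abca7, Abcb4 and Abcc3, or 3 of 35 with Abcc3 left out. Without control 1 the count was 7, with Abca2, Abcb9 and Abcc10 added, and without EA 2 and EA 5 together it was 4. Leaving libraries out can only keep or raise this count, and the share of all genes in these smaller sets was not computed.

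Promoter sequence was read for the 3 members with the lowest p, all lower in EA, and for Abca5, the member furthest above 0, to show what lies upstream of genes at both ends of the range. They are RefSeq sequences of the GRCr8 assembly, the 250 bases before the transcription start, with GC boxes (GGGCGG or its complement CCGCCC) in capitals.
Abcc6, chr1:105637896-105638145, minus strand: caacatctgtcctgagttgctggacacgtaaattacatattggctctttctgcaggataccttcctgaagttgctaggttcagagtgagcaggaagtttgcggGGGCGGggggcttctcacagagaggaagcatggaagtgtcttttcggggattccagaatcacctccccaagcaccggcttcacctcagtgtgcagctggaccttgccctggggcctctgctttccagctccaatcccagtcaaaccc
Abca2, chr3:28642534-28642783, plus strand: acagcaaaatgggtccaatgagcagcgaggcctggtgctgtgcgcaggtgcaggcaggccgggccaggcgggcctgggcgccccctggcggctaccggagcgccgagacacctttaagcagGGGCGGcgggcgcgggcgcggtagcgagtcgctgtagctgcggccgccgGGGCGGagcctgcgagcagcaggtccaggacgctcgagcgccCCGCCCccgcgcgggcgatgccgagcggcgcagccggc
Abca7, chr7:10361990-10362239, minus strand: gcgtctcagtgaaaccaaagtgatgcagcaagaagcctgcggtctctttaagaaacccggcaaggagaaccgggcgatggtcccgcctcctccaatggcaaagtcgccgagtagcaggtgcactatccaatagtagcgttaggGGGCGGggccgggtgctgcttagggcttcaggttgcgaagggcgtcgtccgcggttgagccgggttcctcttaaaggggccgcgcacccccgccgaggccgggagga
Abca5, chr10:95808425-95808674, minus strand: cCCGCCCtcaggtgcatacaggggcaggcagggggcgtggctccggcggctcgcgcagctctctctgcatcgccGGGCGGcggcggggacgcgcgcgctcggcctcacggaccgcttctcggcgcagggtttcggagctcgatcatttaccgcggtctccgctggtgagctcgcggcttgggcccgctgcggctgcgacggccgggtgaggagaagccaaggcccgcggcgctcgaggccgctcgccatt
Abcc6 and Abca7 hold 1 GC box each, while Abca2 holds 3 and Abca5 holds 2. These genes were picked by their values and the motif is common in promoters, so its presence in them says nothing on direction. A promoter was matched for 27 of the 36 members. The GC box, sought on both strands, was in 21 of 27 (77.8%), beside 59.6% of 9618 promoters of genes tested and 30.5% of all 33469 promoters. The CCAAT box was in 29.6% of member promoters, beside 35.0% of those of genes tested, and TATAAA in 7.41%, beside 6.26%. Across the 27 members, Spearman's rho between log2 fold change and promoter GC content was -0.075, and over all 9618 genes it was 0.001. Across all 36 members rho between log2 fold change and gene span was -0.015, and over all 15169 genes 0.067. Median promoter GC content was 66.4% for the 7 matched members with an unadjusted p under 0.05, 59.0% for the other 20 and 60.4% for all genes tested. Genes are not independent replicates, and these matches are descriptions of letters.

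Among the efflux pumps, which export drugs and conjugated metabolites, 7 of 8 members lay below 0, beside 50.5% of all genes. At an unadjusted p under 0.05, 4 were lower (Abcc6, Abcc3, Abcc10 and Abcc1), beside 7.15% of all genes. The median log2 fold change of the pumps was -0.22. Without Abcc3, whose place among the members rests on its control values, 6 of 7 lay below 0, 3 were lower at that p and the median was -0.21. Abcc6 (MRP6, ENSRNOG00000028781, chr1:101959540-102013243 in Rnor_6.0) promotes ATP release from cells and is known for the calcification disorder that follows its loss. Its promoter, printed above, held 1 GC box and a CCAAT box. Its level was 1.42, 0.877, 1.02, 1.26 and 1.15 FPKM in control 1 to 5 and 0.803, 0.756, 0.690, 0.737 and 0.641 FPKM in EA 1 to 5. Every EA library lay below every control library, with means of 1.15 ± 0.209 FPKM in control and 0.726 ± 0.0622 FPKM in EA (SD, n = 5 each). The difference had the lowest p of the family (log2 fold change -0.64 ± 0.14, unadjusted p = 0.000805, edgeR adjusted p = 0.173), and DESeq2 gave an adjusted p of 0.00968. Over the 20 alternatives that tested it the adjusted p ran from 0.00968 to 0.467, and its log2 fold change without EA 2 and EA 5 together was -0.59. Its counts ran from 198 to 504 per library, so it was a low gene, and it was left out by the minimum of 1 FPKM.

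Abcc3 (MRP3, ENSRNOG00000002948, chr10:82047863-82117109), an exporter of glucuronides and bile salts, measured 0.584, 0.530, 0.507, 0.687 and 0.641 FPKM in the 5 control libraries and 0.412, 0.312, 0.444, 0.495 and 0.324 FPKM in the 5 EA libraries. The highest EA value lay just under the minimum and just under the lowest control value (log2 fold change -0.54 ± 0.17, unadjusted p = 0.00729, edgeR adjusted p = 0.223). Without EA 2 and EA 5 together its log2 fold change was -0.35. Both the choice of members and the separation of the groups read the same values here.

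Abcc1 (MRP1), which exports glutathione conjugates and leukotrienes, measured 8.07, 7.12, 6.53, 7.42 and 7.55 FPKM in control 1 to 5 and 7.27, 5.69, 5.43, 6.003 and 6.63 FPKM in EA 1 to 5. EA 1 and EA 5 lay among the control values, and the 3 other EA libraries lay below the lowest control (log2 fold change -0.22 ± 0.08, unadjusted p = 0.0215, edgeR adjusted p = 0.286). Abcc10 (MRP7), a lipophilic drug pump, was at 5.13, 5.68, 5.87, 5.99 and 6.36 FPKM in the 5 control libraries and 4.60, 4.58, 5.11, 5.47 and 4.85 FPKM in the 5 EA libraries. All but EA 4 lay below the controls (log2 fold change -0.21 ± 0.07, unadjusted p = 0.00730, edgeR adjusted p = 0.223). The Abcc10 row shares 11.6% of its span with Dlk2 on the opposite strand, whose own log2 fold change was -0.28 ± 0.09, and the strand setting of the counting is not given in the sources used here.

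Abcg2, the breast cancer resistance protein and a defining pump of brain capillaries, measured 7.29, 6.53, 6.90, 7.43 and 10.1 FPKM in control 1 to 5 and 8.06, 6.55, 4.96, 7.11 and 5.53 FPKM in EA 1 to 5. The groups overlapped, since control 5 was far above the other controls while EA 3 and EA 5 lay below all of them (log2 fold change -0.23 ± 0.14, unadjusted p = 0.141, edgeR adjusted p = 0.520). The log2 fold change was -0.10 without control 5 and -0.15 without EA 3. Abcc4 (MRP4), which exports cyclic nucleotides and prostaglandins, was at 5.77, 4.78, 4.38, 4.08 and 5.32 FPKM in the 5 control libraries and 4.55, 4.20, 4.43, 5.12 and 4.74 FPKM in the 5 EA libraries. Its EA values lay within the control range (log2 fold change -0.06 ± 0.10, unadjusted p = 0.575, edgeR adjusted p = 0.849), and without control 1 the sign turned to 0.02. Abcc5 (MRP5), also a cyclic nucleotide exporter and the most abundant pump of the family, measured 29.0, 30.4, 29.6, 32.7 and 29.3 FPKM in control 1 to 5 and 29.6, 27.9, 27.4, 31.8 and 31.3 FPKM in EA 1 to 5. The groups overlapped, with control 4 above the rest (log2 fold change -0.01 ± 0.04, unadjusted p = 0.873, edgeR adjusted p = 0.966), and the sign turned when control 4, EA 2 or EA 3 was left out. Abcc5 lies wholly within the span of Yeats2 on the opposite strand, whose log2 fold change was 0.06 ± 0.06. Abcc2 (MRP2), the canalicular conjugate pump of liver, was the only pump above 0 at 0.10 ± 0.14 and ranged over 0.436 to 0.659 FPKM.

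No separate level of P-glycoprotein could be read, and the row nearest to it is that of Abcb4 (ENSRNOG00000008012). Abcb4 is the phosphatidylcholine floppase of the bile canaliculus, and its row spans chr4:22133521-22425515 in Rnor_6.0, 292 kb with 5 transcripts. RefSeq's order of genes in the GRCr8 assembly is Crot, Abcb4, Abcb1b, Abcb1a and Rundc3b, so that the 3 protein-coding genes between Crot and Rundc3b are Abcb4 and both P-glycoprotein genes. Whether reads of Abcb1a and Abcb1b entered the Abcb4 row was not tested. In control 1 the row held 6067 counts at 6.98 FPKM, beside 3356 at 5.28 FPKM for Abca1 and 2280 at 8.07 FPKM for Abcc1. FPKM is scaled to transcript length, so counts per FPKM follow the length of the gene model. The Abcb4 row measured 6.98, 5.63, 5.82, 6.09 and 6.19 FPKM in control 1 to 5 and 5.59, 5.22, 4.97, 5.24 and 4.98 FPKM in EA 1 to 5. All EA libraries lay below all controls, and control 1 was the highest library (log2 fold change -0.22 ± 0.07, unadjusted p = 0.00622, edgeR adjusted p = 0.221).

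**Figure D3:**
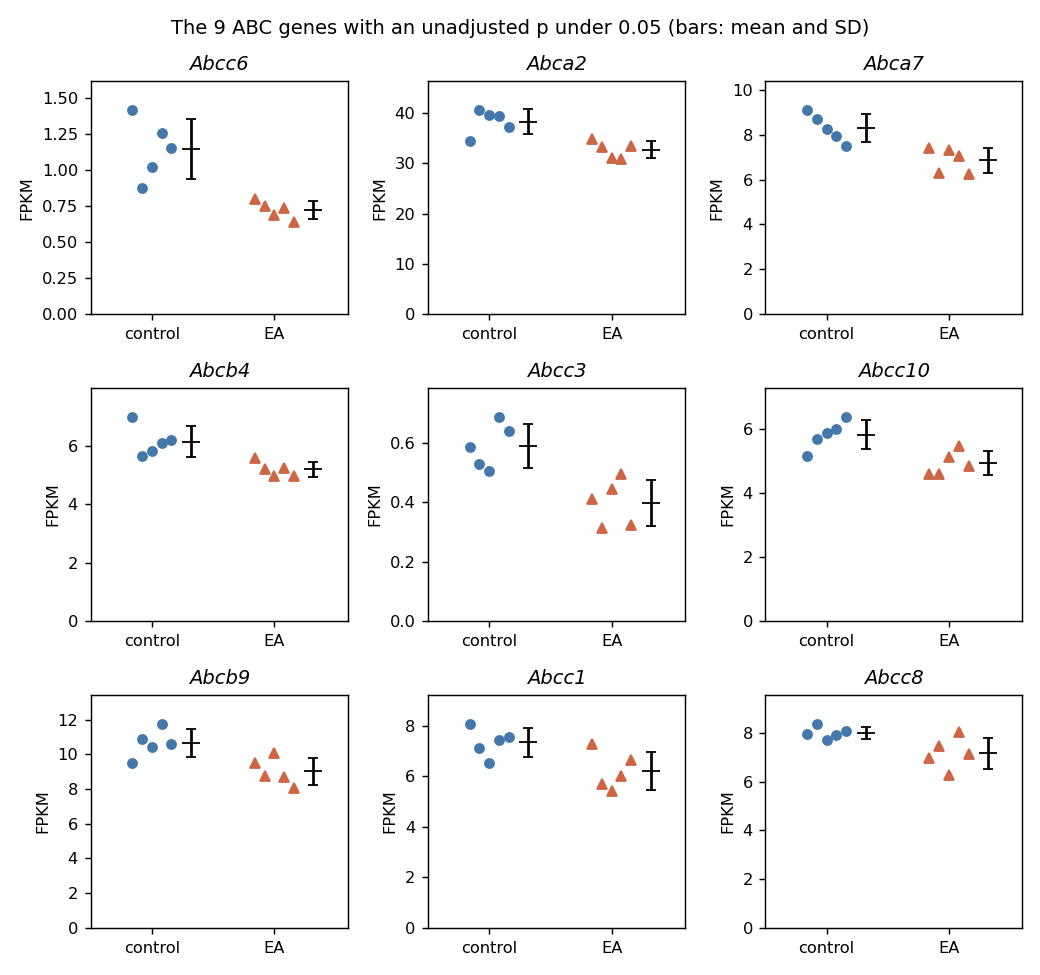
Each panel shows 1 of the 9 members with an unadjusted p under 0.05, with FPKM on a y axis from 0, 1 symbol per library, control as circles and EA as triangles, and bars for mean and SD (n = 5 each). In the panels of Abcc6, Abca7, Abcb4 and Abcc3 the groups do not overlap, and in the other 5 at least 1 EA library reaches the control range.

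Efflux pumps were read beside markers of vascular cells, and which cells hold each pump was not measured in this whole cortex. Of 20 brain endothelial markers, 18 were tested and 16 of these lay below 0 (all genes 50.5%). At an unadjusted p under 0.05, 5 were lower (all genes 7.15%) and 0 were higher (all genes 6.59%). The median log2 fold change of these markers was -0.19. Their summed level ran from 280.9 to 313.5 FPKM in control and from 238.8 to 287.9 FPKM in EA. The 3 with the lowest p were Sox18 (-0.98 ± 0.17, edgeR adjusted p = 0.106), Tie1 (-0.46 ± 0.10, edgeR adjusted p = 0.172) and Erg (-0.50 ± 0.13, edgeR adjusted p = 0.183). Other markers of the list lay near 0, such as Cdh5 (-0.03 ± 0.09) and Emcn (-0.02 ± 0.15). Ly6e (0.19 ± 0.22) and Adgrl4 (0.08 ± 0.16) lay above 0. Cldn5, the tight junction claudin that defines these cells, averaged 0.154 FPKM over all libraries and Pecam1 had no row, whereas the glucose transporter Slc2a1 averaged 120.2 FPKM in control. Whether the Cldn5 row holds all reads of that gene was not tested, so its value is not read as a lack of Cldn5. Pericyte and smooth muscle markers numbered 9 of 10 below 0, with 4 lower at that p and a median of -0.22, and their sums were 174.1 to 197.9 FPKM in control and 161.8 to 188.6 FPKM in EA. The part of these vascular markers in the pump values was not tested.

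Lipid transporters numbered 11 members, of which 7 lay below 0, beside 50.5% of all genes, and their median was -0.06. At an unadjusted p under 0.05, 3 were lower (Abca2, Abca7 and Abcb4), beside 7.15% of all genes. The Abcb4 row was counted here and not among the efflux pumps, although it may also hold reads of the P-glycoprotein genes. Abca2 (ENSRNOG00000014268, chr3:2648885-2668809), an endolysosomal transporter of sterols and sphingolipids best known from oligodendrocytes, was the most abundant gene of subfamily a. It measured 34.4, 40.5, 39.6, 39.5 and 37.3 FPKM in control 1 to 5 and 34.7, 33.3, 31.1, 30.8 and 33.5 FPKM in EA 1 to 5. Control 1 stood below the other controls and just below the highest EA library, while 4 EA libraries lay under all controls (log2 fold change -0.20 ± 0.05, unadjusted p = 0.00120, edgeR adjusted p = 0.174). DESeq2 gave an adjusted p of 0.0193, with a fold short of the 1.2 that the call asked, and over all 21 alternatives the adjusted p ran from 0.0193 to 0.467.

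Abca7 (ENSRNOG00000012939, chr7:12742433-12762341), a phospholipid transporter and an Alzheimer's disease risk gene in people, measured 9.09, 8.71, 8.24, 7.94 and 7.49 FPKM in the 5 control libraries and 7.41, 6.29, 7.32, 7.04 and 6.26 FPKM in the 5 EA libraries. The groups did not overlap, the lowest control standing just above the highest EA library (log2 fold change -0.25 ± 0.07, unadjusted p = 0.00576, edgeR adjusted p = 0.219), and without EA 2 and EA 5 together the log2 fold change was -0.16. Its row lies wholly inside that of Palm on the same strand, whose mean was 113 FPKM in control and 104 FPKM in EA (-0.10 ± 0.07), and how reads were divided between them is not given in the sources used here.

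Abca5, a lysosomal lipid transporter, had the highest log2 fold change of the 36 members. It measured 1.18, 0.988, 1.27, 1.04 and 0.928 FPKM in control 1 to 5 and 1.42, 1.17, 1.04, 1.40 and 1.36 FPKM in EA 1 to 5. EA 1, EA 4 and EA 5 lay above every control (log2 fold change 0.26 ± 0.13, unadjusted p = 0.0580, edgeR adjusted p = 0.381). Abca8, a cholesterol and phospholipid exporter of the same chromosome 10 cluster, measured 2.24, 2.10, 1.81, 1.82 and 1.82 FPKM in the 5 control libraries and 2.32, 2.04, 2.09, 2.09 and 2.31 FPKM in the 5 EA libraries. EA 1 and EA 5 exceeded the highest control, and the other 3 EA libraries lay within the control range (log2 fold change 0.17 ± 0.09, unadjusted p = 0.0954, edgeR adjusted p = 0.449). In that cluster Abca8, Abca8a, Abca9, Abca6 and Abca5 follow each other with gaps of 25.0, 21.9, 8.3 and 31.6 kb. Abca8a was at 0.03 ± 0.09, Abca9 at -0.12 ± 0.20 and Abca6 below the filter, and since Abca8, Abca8a and Abca9 are close copies, the split of reads among them is uncertain.

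Abca1, which loads cholesterol onto apolipoproteins, ranged over 4.15 to 5.28 FPKM with a log2 fold change of 0.12 ± 0.08, and Abcg1, its partner in the same path, over 3.39 to 5.54 FPKM with -0.07 ± 0.12. Abca3, the surfactant lipid transporter of lung lamellar bodies, was at -0.06 ± 0.06. Abcg4, the neuronal sterol exporter and the most abundant gene of subfamily g, measured 9.29, 9.43, 10.6, 10.5 and 8.61 FPKM in control 1 to 5 and 9.32, 10.1, 9.67, 9.70 and 7.54 FPKM in EA 1 to 5. Its groups overlapped, with EA 5 below every control (log2 fold change -0.04 ± 0.09, unadjusted p = 0.699, edgeR adjusted p = 0.8998), and its sign turned without control 3 or EA 5. Among 14 sterol genes that work with these transporters, 11 lay below 0, 4 were lower at an unadjusted p under 0.05 and 1 was higher. The liver X receptor Nr1h2, which induces Abca1 and Abcg1, was at -0.22 ± 0.07 (edgeR adjusted p = 0.213), the sterol regulator Srebf1 at -0.18 ± 0.06 and the retinoid partner Rxra at -0.24 ± 0.08. The 1 higher gene, named after its values were seen, was Apoa1, an apolipoprotein that accepts cholesterol from Abca1, at 0.87 ± 0.33 (edgeR adjusted p = 0.286), with means of 0.790 FPKM in control and 1.42 FPKM in EA and overlapping groups.

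Beside Abca2, 13 of 14 oligodendrocyte markers lay below 0 (all genes 50.5%), with a median of -0.13. At an unadjusted p under 0.05, 4 of them were lower (all genes 7.15%). Their sums were 1071 to 1534 FPKM in control and 941.7 to 1235 FPKM in EA. Mbp, the myelin basic protein, was at -0.31 ± 0.11 (edgeR adjusted p = 0.262). Of 10 astrocyte markers 6 lay below 0 (median -0.04, 1 at that p), of 10 microglia markers 6 (median -0.02) and of 10 neuron markers 4 (median 0.03, 2 higher at that p). Fibroblast and meningeal markers had 7 of 9 below 0 (median -0.13), with sums of 40.5 to 87.8 FPKM in control and 29.2 to 89.4 FPKM in EA. The 3 haemoglobin genes tested lay below 0, with sums of 7.68 to 43.0 FPKM in control and 6.29 to 15.9 FPKM in EA. What share of the member values moves with these cells was not tested.

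**Figure D4:**
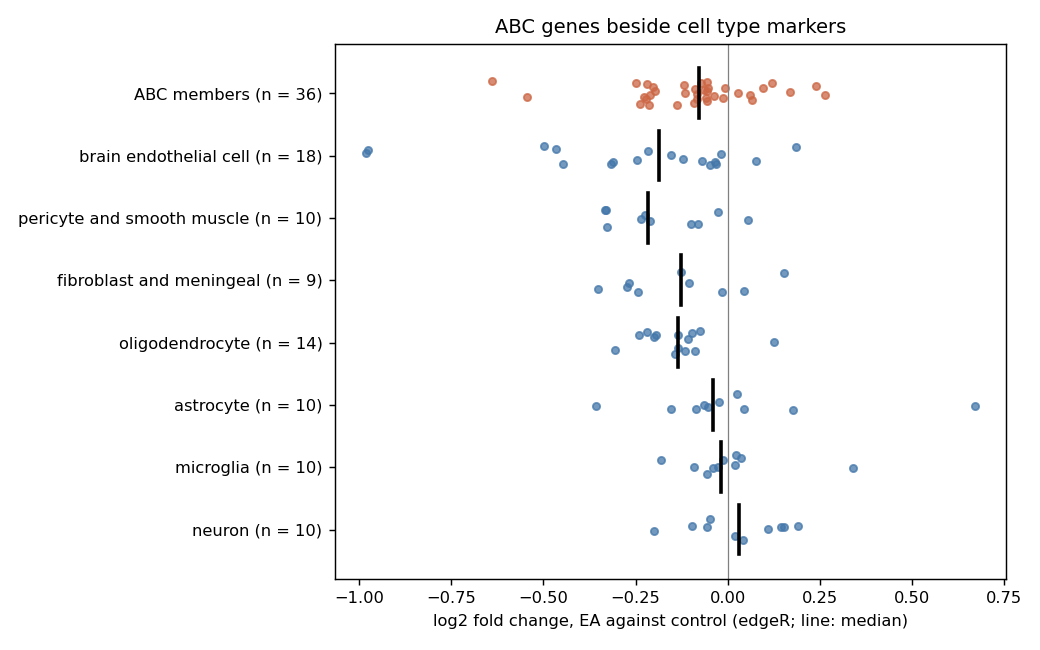
Each point is 1 gene, with its edgeR log2 fold change of EA against control on the x axis, and each row is the 36 ABC members or a list of cell type markers, with a line at the median. The median of the ABC members, -0.08, lies between those of endothelial (-0.19), pericyte (-0.22) and oligodendrocyte (-0.13) markers on the left and those of astrocyte (-0.04), microglia (-0.02) and neuron (0.03) markers on the right.

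The mitochondrial transporters, 4 in number, all lay below 0 with a median of -0.08, and none had an unadjusted p under 0.05. Abcb6, a porphyrin transporter and the most abundant gene of subfamily b, measured 17.8, 21.1, 19.1, 18.4 and 17.5 FPKM in control 1 to 5 and 16.2, 17.0, 17.4, 19.7 and 18.6 FPKM in EA 1 to 5. The EA libraries extended below the controls, 3 of them under the lowest, yet the ranges overlapped (log2 fold change -0.06 ± 0.06, unadjusted p = 0.376, edgeR adjusted p = 0.734). Abcb8, which helps export iron from mitochondria, was at 14.3, 18.6, 19.3, 18.6 and 13.8 FPKM in the 5 control libraries and 12.9, 15.5, 14.6, 14.9 and 14.7 FPKM in the 5 EA libraries. Controls formed a lower pair and a higher group, and the EA values sat beside the lower controls (log2 fold change -0.20 ± 0.09, unadjusted p = 0.0563, edgeR adjusted p = 0.377). Abcb10, which serves haem synthesis at the inner membrane, was at -0.08 ± 0.08 over 6.46 to 8.66 FPKM. Of 12 mitochondrial iron-sulfur and haem genes 9 lay below 0, and 1, the cysteine desulfurase Nfs1, had an unadjusted p under 0.05 (-0.37 ± 0.11, edgeR adjusted p = 0.222).

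In lysosomes, Abcb9, a peptide transporter, measured 9.52, 10.9, 10.4, 11.8 and 10.6 FPKM in control 1 to 5 and 9.52, 8.76, 10.1, 8.68 and 8.03 FPKM in EA 1 to 5. EA 2, EA 4 and EA 5 lay below every control, EA 1 was level with the lowest control and EA 3 lay within the control range (log2 fold change -0.21 ± 0.07, unadjusted p = 0.0134, edgeR adjusted p = 0.254), and without EA 2 and EA 5 together the log2 fold change was -0.14. Abcd4, which releases cobalamin from lysosomes, measured 4.28, 4.04, 3.27, 3.13 and 3.62 FPKM in the 5 control libraries and 3.08, 3.30, 3.87, 3.64 and 2.75 FPKM in the 5 EA libraries. Its spread was wide in both groups, which overlapped (log2 fold change -0.12 ± 0.13, unadjusted p = 0.394, edgeR adjusted p = 0.747). The log2 fold change was -0.04 without control 1, -0.05 without EA 5 and -0.02 without EA 2 and EA 5 together.

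Peroxisomal transporters import very-long-chain and branched fatty acids for beta-oxidation. Abcd3, the abundant peroxisomal membrane protein, measured 24.2, 25.4, 24.3, 24.3 and 25.0 FPKM in control 1 to 5 and 25.2, 26.5, 24.8, 26.4 and 23.6 FPKM in EA 1 to 5. The groups overlapped, with EA 2 and EA 4 the highest libraries and EA 5 the lowest (log2 fold change 0.06 ± 0.04, unadjusted p = 0.208, edgeR adjusted p = 0.601). Abcd2, another importer of very-long-chain fatty acids, was at -0.09 ± 0.10. Among 11 peroxisome genes tested, 6 lay below 0 and 2 were lower at an unadjusted p under 0.05, the import factor Pex16 (-0.27 ± 0.08, edgeR adjusted p = 0.221) and the thiolase Acaa1a (-0.24 ± 0.09).

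Of the sulfonylurea receptors, which sense ADP for ATP-sensitive potassium channels, Abcc8 (SUR1) measured 7.94, 8.37, 7.70, 7.93 and 8.09 FPKM in control 1 to 5 and 6.96, 7.44, 6.27, 8.01 and 7.14 FPKM in EA 1 to 5. Controls were tight, 4 of the EA libraries lay below them and EA 4 lay among them (log2 fold change -0.14 ± 0.06, unadjusted p = 0.0322, edgeR adjusted p = 0.316). Abcc9 (SUR2), the receptor of vascular cells, ranged over 3.14 to 7.06 FPKM at -0.05 ± 0.25. Its pore partner in those cells, Kcnj8, was at -0.33 ± 0.13 (edgeR adjusted p = 0.287) and the neuronal pore Kcnj11 at -0.02 ± 0.06. Abcc8 follows Abcc6 on chromosome 1 with a gap of 97.5 kb.

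Soluble ABC proteins of translation had a median of -0.03 over 4 members, 3 of them below 0, and none had an unadjusted p under 0.05. Abce1, which splits ribosomes after termination, measured 20.4, 23.7, 22.0, 22.1 and 20.5 FPKM in control 1 to 5 and 21.8, 21.6, 21.0, 23.7 and 23.9 FPKM in EA 1 to 5. EA 4 and EA 5 stood just above the highest control (log2 fold change 0.07 ± 0.05, unadjusted p = 0.189, edgeR adjusted p = 0.578). Abcf1, a translation initiation factor partner and the most abundant gene of subfamily f, was at 33.7, 37.0, 38.1, 36.6 and 38.4 FPKM in the 5 control libraries and 34.6, 37.0, 35.2, 32.7 and 34.2 FPKM in the 5 EA libraries. Its groups overlapped (log2 fold change -0.06 ± 0.05, unadjusted p = 0.279, edgeR adjusted p = 0.658). Abcf2 was at -0.01 ± 0.04 and Abcf3 at -0.07 ± 0.06. Of 10 translation genes that act with them, 3 lay below 0, 3 were higher at an unadjusted p under 0.05 (Eif2s1, Eif5 and Etf1) and 1 was lower (Gcn1), with a median of 0.09.

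No role was assigned to the rodent genes Abcg3l1 (-0.24 ± 0.17, 0.727 to 1.24 FPKM) and Abcg3l3 (0.24 ± 0.33, 0.482 to 1.63 FPKM), which are close copies 332.5 kb apart on chromosome 14, so that the split of reads between them is uncertain. Of ABC genes with other symbols, the antigen peptide transporter subunit Tap1 was at -0.38 ± 0.17 (edgeR adjusted p = 0.355), its partner Tap2 at 0.23 ± 0.24, and the chloride channel Cftr averaged 0.314 FPKM and was not tested. Among 9 regulators of pump genes tested, such as Ahr and Nfe2l2, 5 lay below 0 and none had an unadjusted p under 0.05.

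Across subfamilies, the summed level of subfamily b was 61.0, 68.3, 65.3, 65.5 and 59.7 FPKM in control 1 to 5 and 55.2, 57.2, 57.9, 59.0 and 56.5 FPKM in EA 1 to 5, with no overlap and a change of the mean of -10.6%. All 6 members of subfamily b lay below 0, at a median of -0.14. Subfamily a summed to 71.8, 76.4, 73.5, 73.0 and 70.3 FPKM in control and 70.4, 65.7, 62.2, 64.2 and 67.5 FPKM in EA, where EA 1 alone reached the lowest control. Abca2 made up 51.0% of that sum, and the rest of subfamily a was 34.7 ± 1.82 FPKM in control and 33.3 ± 1.74 FPKM in EA. Of all 8 members of subfamily a, Abca2 included, 4 lay below 0 and 4 above. Subfamily c had 8 of 9 members below 0 (median -0.14), or 7 of 8 without Abcc3 (median -0.10), and means of 63.3 ± 2.46 and 58.7 ± 3.43 FPKM, its groups overlapped, and Abcc5 was 49.0% of its sum.

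Subfamily d averaged 40.7 ± 1.3 FPKM in control and 40.0 ± 2.29 FPKM in EA, subfamily e 21.7 ± 1.35 and 22.4 ± 1.31, subfamily f 92.1 ± 4.24 and 88.0 ± 2.98, and subfamily g 23.6 ± 0.758 and 21.7 ± 2.29 (SD, n = 5 each), and in these 4 the libraries of both groups overlapped. Per library, between 21 and 31 of the 36 members lay below the control mean in EA and between 14 and 24 in control.

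**Figure D5:**
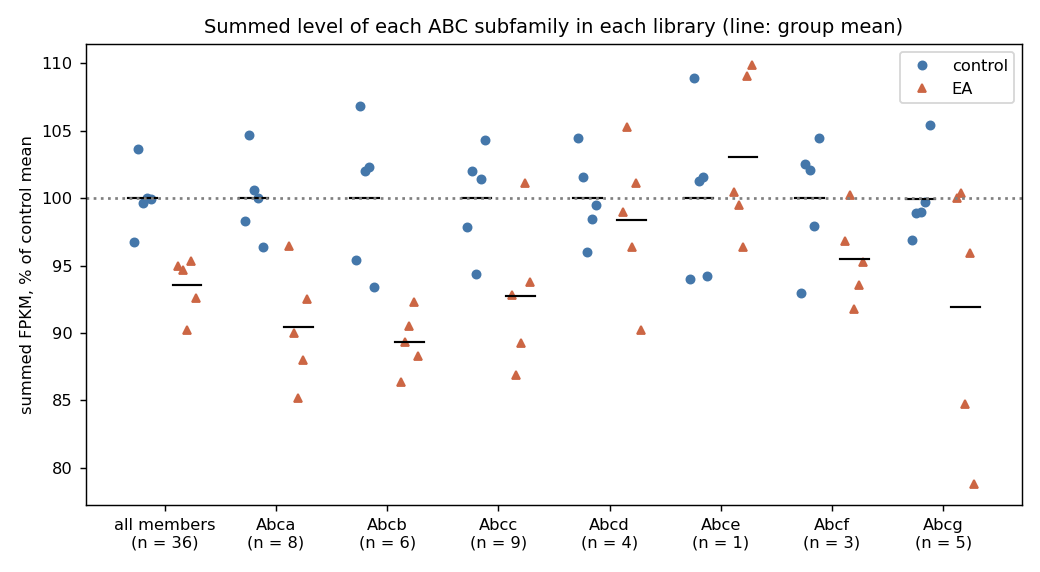
The y axis gives the summed FPKM of all 36 members and of each subfamily in each library as a percentage of the control mean, control as circles and EA as triangles, with a line at each group's mean. All members together and subfamily b show EA libraries wholly below the controls, and subfamilies d and e show both groups around 100.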

How the data were processed

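Cortex poly(A) RNA of 10 rats (5 EA, 5 control) was sequenced as stranded paired-end libraries. The authors aligned reads to Rnor_6.0, assembled transcripts with StringTie and deposited FPKM and counts per gene. Per the submitters' processing notes the aligner was HISAT2 2.0 and the assembler StringTie 1.3.0, with Bowtie 0.12.2 also listed. How the deposited counts were drawn from the assembly is not given in the sources used here, and their sums exceed the reads the study lists, so reads may have added to more than 1 row. The table's listing of 0 FPKM as a small constant was read as 0.

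The groups and replicate numbers came from the labels. Counts of the 15169 genes with FPKM of at least 0.5 in at least 5 libraries were fitted with edgeR 4.0.16 (TMM, quasi-likelihood F test, R 4.3.3) and adjusted by Benjamini-Hochberg over all of them. A call needed an adjusted p under 0.05 and a fold above 1.2. DESeq2 1.42.0 and limma 3.58.1 on log2(FPKM + 0.5) were alternatives, as were other filters, scalings and left-out libraries, 21 in all. Levels are FPKM, mean ± SD, and log2 fold changes are edgeR values ± standard error.

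Values in every library are given for the 12 members of lowest p, members whose groups do not overlap, the most abundant member of each subfamily, the ABC genes tabulated by the study (Abca2, Abcb4, Abcc3, Abcc6, Abcd4 and Abcg2) and the drug pumps Abcc1 and Abcc4, 21 in all. Single values of 2 members are not reported here, and both stay in the counts, medians and sums. The members, the role lists and the marker lists were chosen with earlier results of these data known. On simulated counts of the same 15169 genes for EA against control, the edgeR call found 10% of genes changed by a fold of 1.2, 66% at 1.5 and 76% at 2. The call itself asks a fold above 1.2, which leaves out part of the genes simulated at 1.2 whatever the number of libraries.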

Additional observations from a re-analysis of the deposited data

Results flagged for a closer look

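Among the 72 groups of 5 libraries (36 members in EA and in control), 4 held 1 library far from the others by Dixon's criterion, and chance alone gives about 1 in 20 groups. Abca1, the cholesterol exporter, was at 5.28 FPKM in control 1, above the other controls. Abcf2 was at 30.27 FPKM in control 1, below the other controls. Abcg2, the capillary drug pump, was at 10.06 FPKM in control 5, above the other controls. Abcb10 was at 6.46 FPKM in EA 5, below the other EA libraries. The reasons were not tested.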

How the results depend on the processing

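Over 21 alternatives, 28 of 36 members kept their direction throughout. DESeq2 called 1 member (Abcc6), the edgeR alternatives 0. Members with groups apart and lower were 2 at a minimum of 1 FPKM, where Abcc6 and Abcc3 are not tested, and 4 to 7 with 1 library left out (7 without control 1). A library left out can only keep or raise that count, and the matching share of all genes was not computed. Members lower at an unadjusted p under 0.05 were 3 without EA 2 and EA 5 together, beside 4.32% of all genes. With 1 library left out they were 7 to 9, beside 5.06% to 8.27% of all genes. Members higher at that p were 0 to 3 with 1 library left out, beside 5.16% to 8.63% of all genes. The count of 3 higher came without control 1, where the share of all genes was 8.63%. Abcc4 ranged from -0.1197 to 0.0236, Abcc5 from -0.0289 to 0.0176 and Abcg4 from -0.0743 to 0.0366 with 1 library left out. Without EA 2 and EA 5 together, Abcc5 was at 0.0033 and Abcg4 at 0.0173. limma on FPKM gave 1455 genes lower and 662 higher at that p, against 1085 and 1000 by edgeR, and a median of all genes of -0.02. Replicate numbers did not pair the libraries (correlations of deviations -0.003 to 0.08). With the number as a replicate block 0 members were called, and 10 were lower at that p, beside 7.53% of all genes. Folds near 1.2 were mostly not called in the simulation. Both the fold cutoff of 1.2 and the 5 libraries per group limit that share, and their parts were not told apart. The causes were not tested.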

Other observations

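Abcc9, the sulfonylurea receptor of vascular cells, fell into separate clusters that did not follow the groups, a pattern picked after its values were seen. It was at 6.18 FPKM in control 2, 7.06 FPKM in control 5, 6.25 FPKM in EA 3 and 5.71 FPKM in EA 4, and between 3.14 and 3.89 FPKM in the other 6 libraries. Its log2 fold change had the widest standard error of subfamily c, at 0.25.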
